A study of Mus musculus with 4 samples.

Results

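The genes described here serve antigen presentation by MHC class II and T cell costimulation, and were followed in 4 bulk RNA-seq libraries: H2-Aa, H2-Ab1, H2-Eb1, Cd74, H2-DMa, H2-DMb1, Ciita, Cd80, Cd86 and Cd40. They were matched by symbol, and all 10 were found among the 52636 Ensembl genes of the deposited files. The libraries came from cells of the corpus callosum, the large white matter tract of the forebrain, of mice of the Mertk_KO genotype that had received chow with 0.2% cuprizone for 4 weeks. Cuprizone is a copper chelator that kills oligodendrocytes and strips myelin, and Mertk is a receptor through which phagocytes take up dying cells. The series sets dying cells (AnnexinV-positive, 2 libraries) against living cells (AnnexinV-negative, 2 libraries), divided by annexin V, which binds phosphatidylserine exposed on the cell surface. Both groups share the knockout and the diet, and no wild-type or untreated library was analysed here. The labels give neither age, sex nor strain. They also leave unsaid whether libraries of 1 group are from different mice, and the p-values therefore speak only of library-to-library spread, which may be technical.

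MHC class II molecules are pairs of an alpha and a beta chain that show peptides of engulfed proteins to CD4 T cells. The chains are made together with the invariant chain Cd74, which fills the peptide groove until the H2-DM pair exchanges its remnant for a peptide in the endosome, and the whole set is switched on by the transactivator Ciita. A T cell responds fully only when it also meets a costimulatory ligand, such as Cd80 or Cd86, whose display presenting cells raise after their receptor Cd40 is engaged. Resting microglia, the macrophages of the brain, carry little class II and raise it in demyelination.

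The deposited values carry no unit and were read as RPKM that the authors scaled between libraries. RPKM count reads per kilobase of gene, so that levels of different genes can be compared per length. Gene reads worked out from the values came to about 67500000 and 60100000 in the AnnexinV-positive libraries, against 50500000 and 43300000 in the AnnexinV-negative libraries. The 10 mature oligodendrocyte markers summed to 45.5 and 33.7 RPKM in AnnexinV-positive cells, against 886 and 486 RPKM in AnnexinV-negative cells. The 14 homeostatic microglia markers summed to 5609 and 5577 RPKM in AnnexinV-positive cells, against 2182 and 2678 RPKM in AnnexinV-negative cells. In bulk samples, fewer cells of a type and less RNA per cell cannot be told apart. Differences below are log2 differences of RPKM + 0.1, AnnexinV-positive minus AnnexinV-negative, from limma fitted to the 10927 genes that reached an RPKM of 1 in at least 2 libraries, and a gene was called at a Benjamini-Hochberg adjusted p under 0.05.

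Of the 10 genes, 8 were tested, 6 of these rose in AnnexinV-positive cells, and 0 fell (also 0 lower at an unadjusted p under 0.05 in limma). Over all genes tested, 30.8% rose and 9.26% fell. The median difference of the 8 tested genes was 1.31, beside a median of 0.45 over all genes tested. Cd80 passed the minimum only through the AnnexinV-positive libraries, so it had to differ to be tested. Leaving it aside, 5 of 7 rose. The rises were not even across the set: Cd74, Cd86, H2-DMb1, Cd80 and H2-DMa differed by 1.24 to 1.69, H2-Ab1 by 0.86, and H2-Aa and H2-Eb1 did not pass. Ciita and Cd40 stayed under the minimum in every library. The call of 6 genes became 5 without AnnexinV-positive library 1 or 2 or without AnnexinV-negative library 2, and 8 without AnnexinV-negative library 1. Of all genes tested, 16.0%, 11.9%, 30.7% and 28.7% rose in these 4 fits, in that order.

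**Figure D1:**
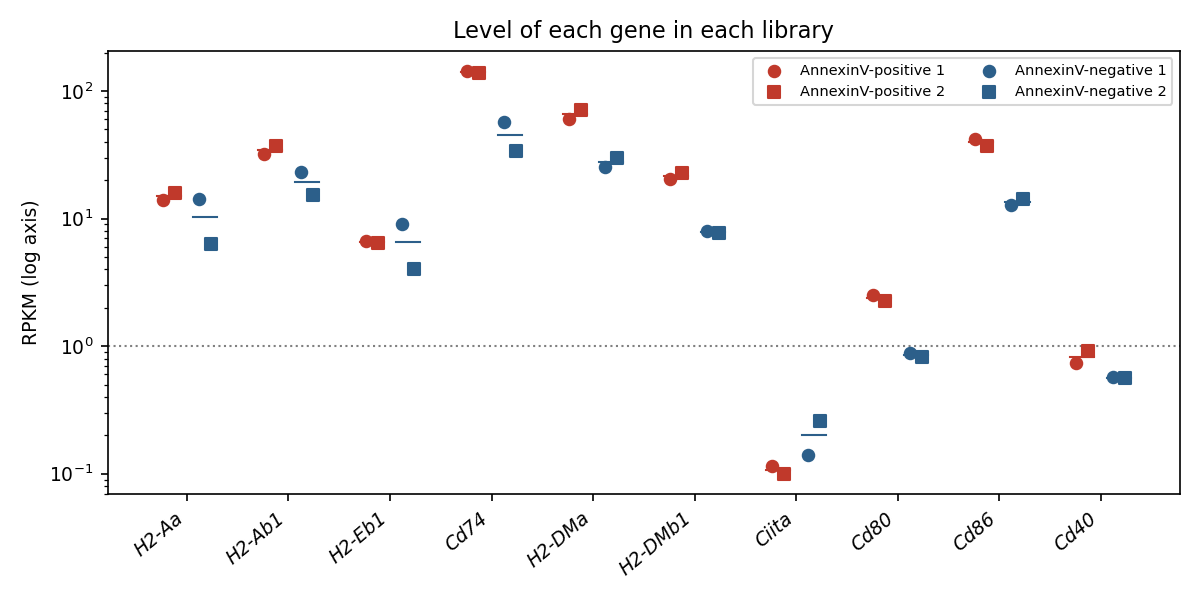
RPKM (log axis) of each gene in the 2 AnnexinV-positive (red) and 2 AnnexinV-negative (blue) libraries, with circles for replicate 1, squares for replicate 2, bars for group means and a dotted line at the minimum of 1 RPKM. Cd74 is the highest gene in all 4 libraries and Ciita the lowest, and the groups overlap for H2-Aa and H2-Eb1 only.

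The groups overlapped for H2-Aa and H2-Eb1 and were apart for the other 8 genes, of which 7 were higher and 1, Ciita, was lower in AnnexinV-positive cells. Among all 44826 genes above 0 in any library, the groups were apart with AnnexinV-positive higher for 24.6% and with AnnexinV-positive lower for 30.7%. In AnnexinV-positive cells the order of mean levels was Cd74, H2-DMa, Cd86, H2-Ab1, H2-DMb1, H2-Aa, H2-Eb1, Cd80, Cd40 and Ciita, and only Cd86 and H2-Ab1 overlapped as neighbours. In AnnexinV-negative cells H2-Ab1 stood above Cd86 and H2-Aa above H2-DMb1, and the libraries of Cd86, H2-Aa, H2-DMb1 and H2-Eb1 overlapped from each neighbour to the next.

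The chains that carry the peptide come first. Their genes lie side by side in the class II region of chromosome 17 (GRCm38, GENCODE vM21): H2-Ab1 at 34257689 to 34269419 on the plus strand, H2-Aa at 34282744 to 34287823 on the minus strand and H2-Eb1 at 34305867 to 34316674 on the plus strand. Class II promoters are known for an X box, bound by RFX factors, followed at a short distance by a Y box, bound by NF-Y. RefSeq promoter windows of GRCm38.p6, from 250 bases before to 50 bases after the start that RefSeq gives, matched 5 of the 10 genes (H2-Aa, H2-Eb1, H2-DMa, H2-DMb1 and Cd80). That start equals the GENCODE gene start for H2-Aa and H2-Eb1, but lies inside the GENCODE gene by 119 bases for H2-DMb1, by 3291 and 5977 bases for the 2 windows of H2-DMa and by 3372 bases for Cd80. Letters for the X box (CTNGNAAC) and the Y box (GATTGG) were chosen after these windows had been read, and were searched on both strands. The X letters occurred in 13.2% and the Y letters in 16.1% of all 32851 windows. X followed by Y on the gene's strand with a gap of 15 to 35 bases occurred in 17 windows, or 0.052%. This share is not independent of the windows that had been read before the letters were chosen. H2-Aa, H2-Eb1 and H2-DMb1 were among the 17 windows, and so was H2-Ob, a chain of an H2-DM inhibitor. The stretches are shown because these neighbouring genes share the module while H2-DMb1 and H2-Ob rose and H2-Aa and H2-Eb1 did not pass, and capitals mark the X box and then the Y box. The stretch of H2-DMb1 lies in a UTR of the GENCODE gene and is not printed.
H2-Aa (chr17:34287863-34287911, minus strand): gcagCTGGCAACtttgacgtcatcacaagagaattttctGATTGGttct
H2-Eb1 (chr17:34305769-34305816, plus strand): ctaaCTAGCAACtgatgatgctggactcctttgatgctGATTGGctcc
H2-Ob (chr17:34238811-34238856, plus strand): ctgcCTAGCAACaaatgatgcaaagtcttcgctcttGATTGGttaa
The gap between the boxes was 27 bases in H2-Aa and H2-DMb1, 26 in H2-Eb1 and 24 in H2-Ob. Neither window of H2-DMa and not the window of Cd80 held the pair, which says only that these letters are not in these windows.

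H2-Ab1, the beta chain of the I-A molecule, was read at 32.2 and 37.0 RPKM in AnnexinV-positive cells, against 23.2 and 15.4 RPKM in AnnexinV-negative cells. Both AnnexinV-positive libraries lay above both AnnexinV-negative libraries. The difference was 0.86 (SE 0.24, limma adjusted p 0.0275), and group means were 34.6 ± 3.34 in AnnexinV-positive and 19.3 ± 5.57 RPKM in AnnexinV-negative cells (SD, n = 2 each), a ratio of 1.79. The call was the least firm of the 6: the limma adjusted p was 0.0531 without AnnexinV-positive library 1, 0.121 without AnnexinV-positive library 2 and 0.0771 without AnnexinV-negative library 2.

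H2-Aa, the alpha chain that pairs with H2-Ab1, was read at 14.0 and 15.9 RPKM in AnnexinV-positive cells, against 14.3 and 6.29 RPKM in AnnexinV-negative cells. AnnexinV-negative library 1 fell between the AnnexinV-positive libraries, while library 2 was 2.28 times lower than library 1. The difference of 0.64 (SE 0.36) did not pass (limma adjusted p 0.186). Without AnnexinV-negative library 1 it was 1.23 (limma adjusted p 0.00453), and without AnnexinV-negative library 2 it was 0.05 (limma adjusted p 0.868).

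H2-Eb1, the beta chain of the I-E molecule, was read at 6.66 and 6.39 RPKM in AnnexinV-positive cells, against 8.99 and 4.05 RPKM in AnnexinV-negative cells. The AnnexinV-positive libraries lay between the AnnexinV-negative ones, and the group means were nearly equal, at 6.52 ± 0.194 in AnnexinV-positive and 6.52 ± 3.49 RPKM in AnnexinV-negative cells (SD, n = 2 each). The difference was 0.11 (SE 0.35, limma adjusted p 0.814). It was 0.67 without AnnexinV-negative library 1 (limma adjusted p 0.0472) and -0.46 without AnnexinV-negative library 2 (limma adjusted p 0.143), so its sign rested on 1 library.

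Cd74, the invariant chain (chromosome 18, 60803848 to 60812652, plus strand), was the highest of the 10 genes. It was read at 144 and 139 RPKM in AnnexinV-positive cells, against 56.9 and 33.6 RPKM in AnnexinV-negative cells. The AnnexinV-positive libraries were within 1.03 times of each other, and the AnnexinV-negative libraries stood 1.70 times apart, with library 1 higher. The difference of 1.69 (SE 0.26, limma adjusted p 0.00482) was the largest in the set, and the group means stood in a ratio of 3.13.

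The 4 genes H2-Aa, H2-Ab1, H2-Eb1 and Cd74 were all higher in AnnexinV-negative library 1 than in library 2, by 1.51 to 2.28 times. The homeostatic microglia markers went the other way, with a sum of 2182 RPKM in AnnexinV-negative library 1 and 2678 RPKM in library 2. Most of the other marker sums were higher in AnnexinV-negative library 1 than in library 2, those of mature oligodendrocytes included. The 6 astrocyte markers summed to 15.7 and 28.0 RPKM in AnnexinV-positive cells, against 65.1 and 45.0 RPKM in AnnexinV-negative cells. The 5 endothelial cell markers summed to 5.69 and 8.20 RPKM in AnnexinV-positive cells, against 25.7 and 27.5 RPKM in AnnexinV-negative cells, and were the higher in AnnexinV-negative library 2. The 7 T or NK cell markers summed to 2.41 and 3.44 RPKM in AnnexinV-positive cells, against 7.79 and 3.71 RPKM in AnnexinV-negative cells. The monocyte markers other than Fn1 (4 genes) summed to 1.51 and 1.69 RPKM in AnnexinV-positive cells, against 4.54 and 2.25 RPKM in AnnexinV-negative cells. Fn1 itself was at 25.7 and 29.95 RPKM in AnnexinV-positive cells, against 10.6 and 33.02 RPKM in AnnexinV-negative cells. Dendritic cell markers, 6 genes of a cell that carries much class II, summed to 3.71 and 2.98 RPKM in AnnexinV-positive cells, against 4.07 and 3.83 RPKM in AnnexinV-negative cells, and of these 6 Ccr7 alone reached the minimum (difference -0.09, limma adjusted p 0.787). Ighm and Cd79b, genes of the B cell receptor, rose by 1.17 and 1.46. The 10 border macrophage markers, of a resident class II carrier at the brain's surfaces, summed to 18.1 and 17.9 RPKM in AnnexinV-positive cells. In AnnexinV-negative cells they summed to 7.08 and 5.88 RPKM. All 3 that were tested rose, beside 30.8% of all genes tested. The median difference of the 3 was 1.19, beside 1.20 for the 14 homeostatic microglia markers. In these 4 lists (T or NK cell, monocyte, dendritic cell and border macrophage) 0 markers were at 0 in any library. The part of these cells in the class II values was not tested.

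**Figure D2:**
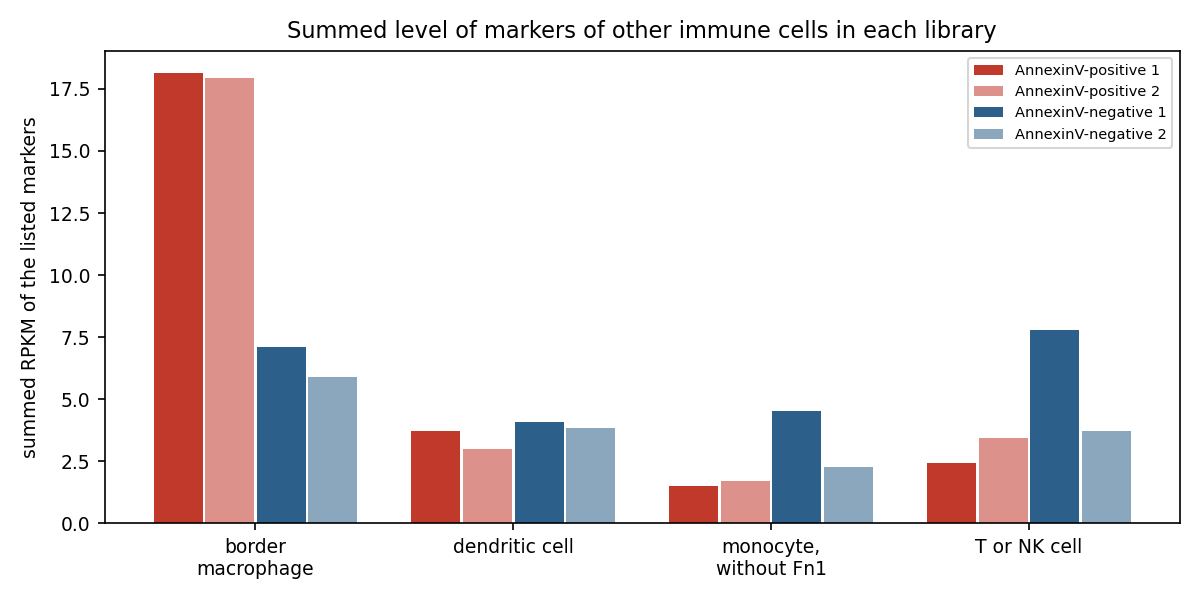
Summed RPKM of the listed markers of 4 other immune cell types in each library, AnnexinV-positive in red and AnnexinV-negative in blue, with replicate 2 paler; Fn1 is left out of the monocyte list. Border macrophage markers are highest in the AnnexinV-positive libraries, at 18.1 and 17.9 RPKM, and T or NK cell and monocyte markers are highest in AnnexinV-negative library 1.

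Both chains of H2-DM, which loads peptides in the endosome, rose in AnnexinV-positive cells. H2-DMa (chromosome 17, 34119541 to 34139101, plus strand) was read at 60.3 and 70.9 RPKM in AnnexinV-positive cells, against 25.4 and 30.1 RPKM in AnnexinV-negative cells. Its difference was 1.24 (SE 0.19, limma adjusted p 0.00447). It shares 360 of 3448 exon bases with its neighbour Brd2, whose reads the kit, which does not keep strand, cannot separate.

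H2-DMb1 (chromosome 17, 34153072 to 34160230, plus strand) was read at 20.5 and 23.0 RPKM in AnnexinV-positive cells, against 8.04 and 7.65 RPKM in AnnexinV-negative cells. The spread within a group was 1.12 times at most, and the difference was 1.46 (SE 0.18, limma adjusted p 0.00226). H2-DMb2 lies next to it as a close copy, and 22.7% of the 50-base words of H2-DMb1 transcripts also occur in other transcripts, mostly of H2-DMb2, so the split of reads between the pair is uncertain. H2-DMb2 itself was at 1.30 and 1.92 RPKM in AnnexinV-positive cells, against 1.08 and 1.15 RPKM in AnnexinV-negative cells (difference 0.47, limma adjusted p 0.199). The H2-DM chains, unlike H2-Aa, H2-Ab1, H2-Eb1 and Cd74, differed by at most 1.18 times between the AnnexinV-negative libraries, H2-DMa being the higher in library 2 and H2-DMb1 in library 1.

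Ciita, the transactivator of class II genes (chromosome 16, 10480059 to 10528418, plus strand), was low throughout, at 0.115 and 0.0995 RPKM in AnnexinV-positive cells, against 0.141 and 0.261 RPKM in AnnexinV-negative cells. These values stand for about 109 and 82 reads in AnnexinV-positive cells and about 162 and 241 reads in AnnexinV-negative cells. Ciita was the only one of the 10 genes with both AnnexinV-positive libraries below both AnnexinV-negative ones. It stayed under the minimum, and with no minimum its difference of -0.51 (SE 0.36) did not pass (limma adjusted p 0.410). The single value per gene cannot tell its alternative promoters apart, and it shares 329 of 9535 exon bases with Dexi.

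Of the costimulatory ligands, Cd86 was by far the more abundant. Cd86 (chromosome 16, 36603869 to 36666081, minus strand) was read at 42.3 and 36.8 RPKM in AnnexinV-positive cells, against 12.7 and 14.2 RPKM in AnnexinV-negative cells. It stood 2.93 times higher by group means, with a difference of 1.54 (SE 0.18, limma adjusted p 0.00204), the smallest p of the set.

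Cd80 (chromosome 16, 38455561 to 38496335, plus strand) was read at 2.51 and 2.27 RPKM in AnnexinV-positive cells, against 0.891 and 0.825 RPKM in AnnexinV-negative cells, with a difference of 1.38 (SE 0.23, limma adjusted p 0.00580). The 2 ligands bind the same T cell receptors, Cd28 and Ctla4. Cd86 exceeded Cd80 by 16.9 and 16.2 times in AnnexinV-positive libraries, against 14.3 and 17.3 times in AnnexinV-negative libraries, so the groups overlapped in this ratio.

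Cd40 (chromosome 2, 165055627 to 165072948, plus strand), the receptor through which T cells prompt presenting cells, was read at 0.731 and 0.918 RPKM in AnnexinV-positive cells, against 0.572 and 0.560 RPKM in AnnexinV-negative cells. The highest of these values lay just under the minimum of 1 RPKM, and the lowest AnnexinV-positive value of Cd80, at 2.27 RPKM, lay above it. With no minimum the difference of Cd40 was 0.47 (SE 0.26, limma adjusted p 0.304).

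Ratios of 2 genes within a library do not depend on how libraries were scaled. Cd74 stood to H2-Ab1 as 4.46 and 3.77 in AnnexinV-positive libraries, against 2.45 and 2.18 in AnnexinV-negative libraries. Cd74 to H2-Eb1 was 21.6 and 21.8 in AnnexinV-positive libraries, against 6.33 and 8.29 in AnnexinV-negative libraries, and Cd74 to H2-Aa was 10.3 and 8.79 against 3.97 and 5.34 in the same order of groups. In all 3 ratios the groups were apart, with more Cd74 per chain in AnnexinV-positive cells. H2-Eb1 to H2-Ab1 was 0.207 and 0.173 in AnnexinV-positive libraries, against 0.387 and 0.264 in AnnexinV-negative libraries. H2-Ab1 to its partner H2-Aa was 2.30 and 2.33 in AnnexinV-positive libraries, against 1.62 and 2.44 in AnnexinV-negative libraries, and here the groups overlapped. H2-DMa to H2-DMb1 was 2.94 and 3.09 in AnnexinV-positive libraries, against 3.16 and 3.93 in AnnexinV-negative libraries. Where groups were apart the two-sided exact permutation p was 0.333, the smallest that 2 libraries against 2 can give, so this test cannot pass a threshold of 0.05 for any of the 11 ratios compared.

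**Figure D3:**
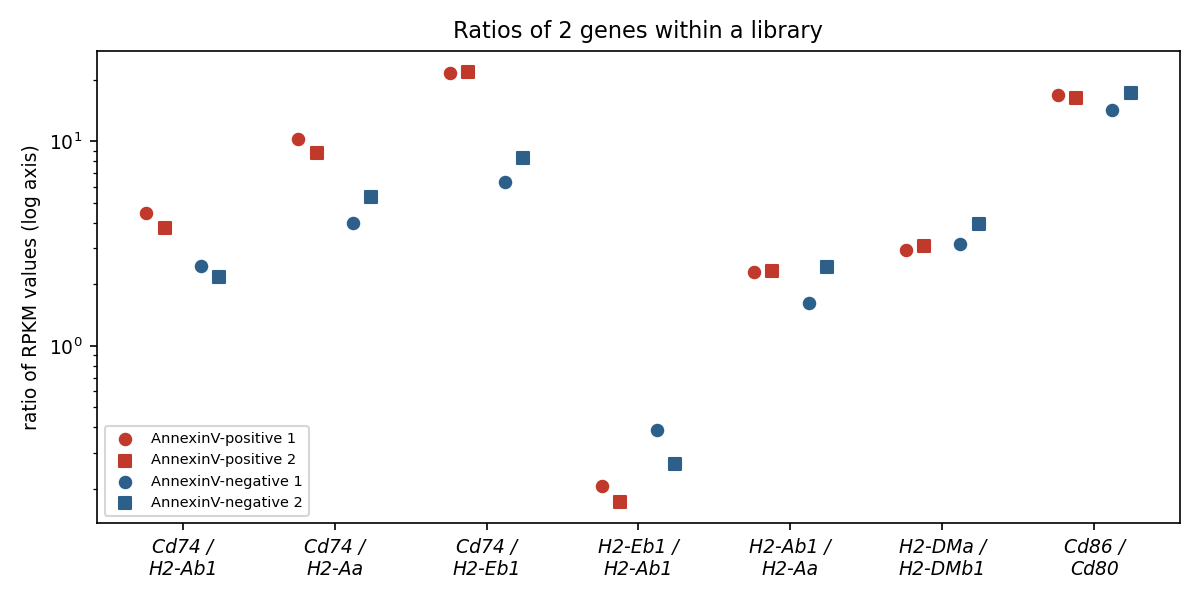
Ratios of RPKM values of 2 genes in the same library (log axis), AnnexinV-positive in red and AnnexinV-negative in blue, circles for replicate 1 and squares for replicate 2. Cd74 exceeds each of the 3 class II chains by more in both AnnexinV-positive libraries, while the groups overlap for H2-Ab1 over H2-Aa and for Cd86 over Cd80.

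The direction of several genes depended on the scale of the libraries. The summed RPKM of all genes was 200348 and 217768 in AnnexinV-positive libraries, against 122944 and 120680 in AnnexinV-negative libraries, and the median difference of all genes tested was 0.45 as deposited, 0.13 with libraries centred on their own median over these genes, -0.32 on the TPM scale (each library set to the same sum) and -0.68 with each library centred on the 14 microglia genes. On the TPM scale, 3 of the 8 tested genes rose: Cd74 by 0.92 (limma adjusted p 0.0482), Cd86 by 0.77 (limma adjusted p 0.0326) and H2-DMb1 by 0.69 (limma adjusted p 0.0318). Of all genes tested, 1.03% rose on that scale. With libraries centred on their median, 5 of 8 rose (all but H2-Ab1 of the 6), beside 10.4% of all genes tested. Relative to the microglia genes, 0 of 8 were called in either direction by limma (1 was higher and 1 lower at an unadjusted p under 0.05), beside 0.201% of all genes tested that rose and 49.4% that fell. On this scale Cd74 was at 0.57 (limma adjusted p 0.150), Cd86 at 0.42 (limma adjusted p 0.0792) and H2-Eb1 at -1.01 (limma adjusted p 0.0707).

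Set against the median microglia gene of its own library, Cd74 was at 62.4% and 63.7% in AnnexinV-positive libraries, against 57.3% and 31.5% in AnnexinV-negative libraries. H2-Eb1 was at 2.89% and 2.92% in AnnexinV-positive libraries, against 9.05% and 3.80% in AnnexinV-negative libraries. H2-Aa was at 6.08% and 7.25% in AnnexinV-positive libraries, against 14.4% and 5.90% in AnnexinV-negative libraries. By this measure Cd74, H2-DMb1, Cd80 and Cd86 lay higher and H2-Eb1, Ciita and Cd40 lower in both AnnexinV-positive libraries. For H2-Aa, H2-Ab1 and H2-DMa the groups overlapped. The share of all genes that lay apart by this measure was not worked out. With libraries centred on the 14 microglia genes, the median difference of all genes tested was -0.68, and 49.4% of them fell. Cd40, higher in AnnexinV-positive cells as deposited, was at 0.318% and 0.420% of the median microglia gene, against 0.575% and 0.525% in AnnexinV-negative libraries. Cd86 was at 18.4% and 16.8% in AnnexinV-positive libraries, against 12.8% and 13.4% in AnnexinV-negative libraries.

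**Figure D4:**
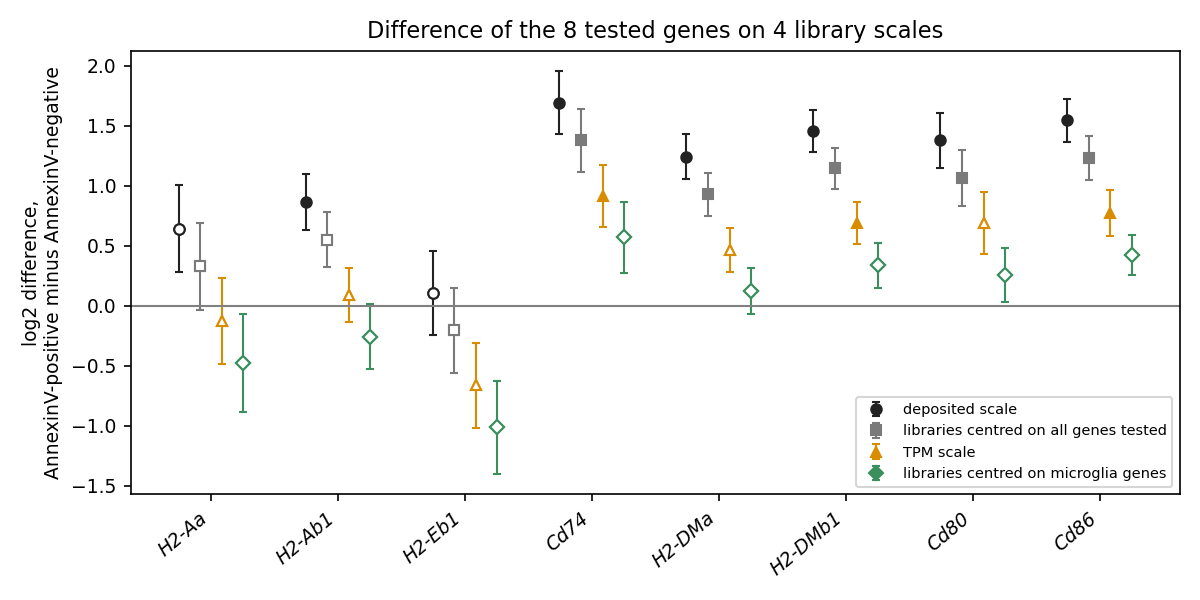
Log2 difference (AnnexinV-positive minus AnnexinV-negative, bars for the standard error, n = 2 libraries each) of the 8 tested genes on 4 library scales, filled where the limma adjusted p was under 0.05. Centring on the microglia genes moves every gene down by the same amount, by construction. On that scale H2-Aa, H2-Ab1 and H2-Eb1 lie below 0, while Cd74, H2-DMa, H2-DMb1, Cd80 and Cd86 lie above it.

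Other genes of the class II route largely rose on the deposited scale. In the accessory list, 7 of 9 tested genes rose, beside 30.8% of all genes tested, and the median of the 9 was 1.11. The cathepsin Ctss, which cuts the invariant chain, was read at 1866 and 1906 RPKM in AnnexinV-positive cells, against 707 and 648 RPKM in AnnexinV-negative cells (difference 1.48, limma adjusted p 0.00313). The endosomal proteases Lgmn and Ctsl rose by 1.13 and 1.11. March8, a ubiquitin ligase that can remove class II from the surface, was the tested gene that went against the rest, at -0.19 (limma adjusted p 0.467), and on the TPM scale it fell by 0.97 (limma adjusted p 0.0247). On that scale 2 of the 9 rose, beside 1.03% of all genes tested. Relative to the microglia genes 0 of the 9 rose, beside 0.201% of all genes tested.

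Of 7 tested genes for factors that bind class II promoters 2 rose, a share near the 30.8% of all genes tested that rose, and their median was 0.26. Rfx5, the DNA-binding subunit of the X-box complex, was at 1.23 (limma adjusted p 0.0113) and Nfya, a subunit of the Y-box factor, at 0.95 (limma adjusted p 0.0147), while the highest genes of the list, Creb1, Nfyb and Rfxap, were at 0.27, -0.09 and 0.20 and did not pass. Rfx5 passed the minimum only through the AnnexinV-positive libraries, at 2.65 and 1.90 RPKM in AnnexinV-positive cells, against 0.896 and 0.902 RPKM in AnnexinV-negative cells, so it had to differ to be tested. With libraries centred on their median 0 of the 7 rose (limma adjusted p 0.0505 for Rfx5 and 0.0772 for Nfya). Relative to the microglia genes 0 of the 7 rose and 5 fell, beside 49.4% of all genes tested that fell.

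Interferon gamma is the classical inducer of Ciita. Ifng itself was at 0.0837 and 0.0962 RPKM in AnnexinV-positive cells, against 0.317 and 0.120 RPKM in AnnexinV-negative cells, and was not tested. Of 8 tested genes of its pathway 6 rose, beside 30.8% of all genes tested, and the median of the 8 was 1.04. Among those that rose were Irf8 (1.37), the receptor chain Ifngr1 (1.27) and Irf1 (1.13), the most abundant of the list. On the TPM scale 0 of the 8 rose, beside 1.03% of all genes tested. Relative to the microglia genes 0 rose, beside 0.201% of all genes tested.

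All 9 tested genes of the remaining costimulatory and coinhibitory ligands rose, beside 30.8% of all genes tested. Their median was 1.20, and they were led in level by the adhesion molecule Icam1 (1.38), the 4-1BB ligand Tnfsf9 (1.22) and Lgals9 (1.17). The 5 others of that list, Pdcd1lg2, Vtcn1, Cd70, Tnfsf4 and Tnfsf18, did not reach the minimum. On the TPM scale 0 of the 9 rose, beside 1.03% of all genes tested. Downstream of Cd40, 6 of 7 tested genes rose, beside 30.8% of all genes tested, and the median of the 7 was 1.11. Among those that rose were the noncanonical NF-kB subunits Nfkb2 (1.25) and Relb (1.37), while Traf6 was at -0.19 (limma adjusted p 0.509). On the TPM scale 0 of the 7 rose and 1 fell, beside 113 higher and 2091 lower of all 10927 genes tested. The medians of these lists lie beside that of the 14 homeostatic microglia genes, 1.20, all of which rose.

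**Figure D5:**
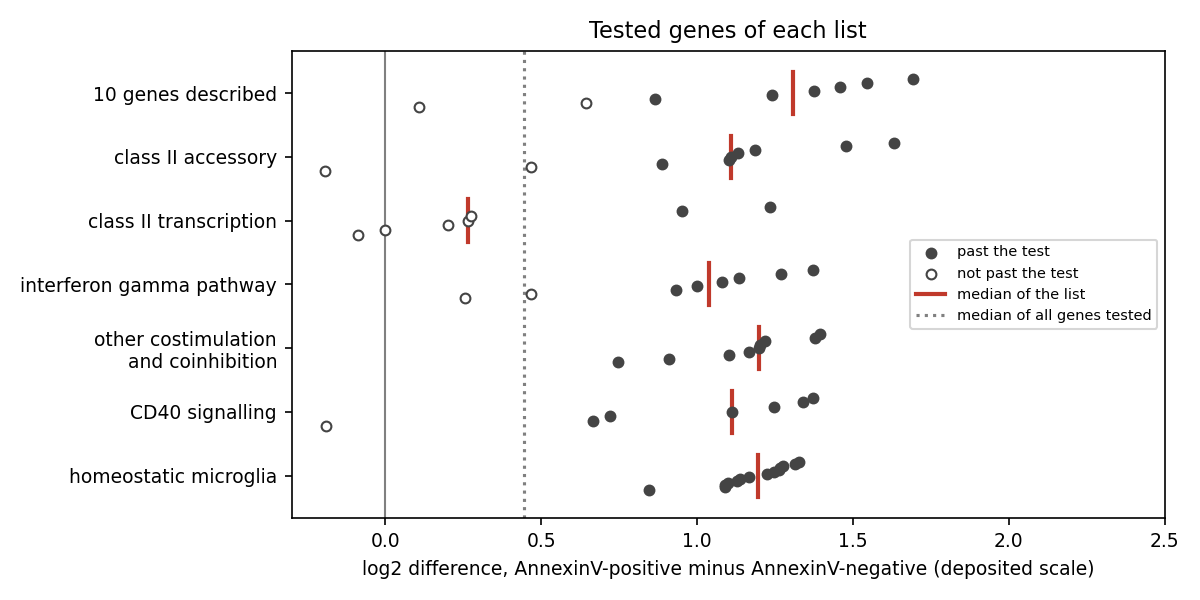
Log2 difference (deposited scale) of the tested genes of each list, filled where the limma adjusted p was under 0.05, with red bars at list medians and a dotted line at the median of all genes tested (0.45). Of the lists plotted, class II transcription has the lowest median, 0.26, and the 10 described genes, of which 8 were tested, spread from 0.11 to 1.69.

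On the T cell side, 5 of the 7 listed partners of class II and costimulation stayed under 1 RPKM in every library. Cd4 was at 0.0911 and 0.150 RPKM in AnnexinV-positive cells, against 0.0938 and 0.106 RPKM in AnnexinV-negative cells. Cd3e was at 0.111 and 0.207 RPKM in AnnexinV-positive cells, against 0.404 and 0.607 RPKM in AnnexinV-negative cells. Ctla4 was at 0.277 and 0.349 RPKM against 0.370 and 0.416 RPKM, in the same order of groups. Icos went the other way, at 0.781 and 0.816 RPKM against 0.660 and 0.647 RPKM, and for Cd40lg the groups overlapped. Lag3, a receptor that binds class II, was at 18.6 and 16.2 RPKM in AnnexinV-positive cells, against 4.86 and 4.64 RPKM in AnnexinV-negative cells. Its difference was 1.85 (SE 0.18, limma adjusted p 0.00111), and it rose also on the TPM scale (1.09, limma adjusted p 0.00876) and relative to the microglia genes (0.72, limma adjusted p 0.0193). Which cells the Lag3 reads came from was not tested. Cd28, the receptor of Cd80 and Cd86, was at 1.35 and 1.85 RPKM in AnnexinV-positive cells, against 0.801 and 1.10 RPKM in AnnexinV-negative cells, and its difference of 0.69 did not pass (limma adjusted p 0.0924).

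The genes whose pattern over the 4 libraries lay nearest to that of Cd74 were looked up by the Euclidean distance of centred log2 values, as a description over 4 points that share libraries and scale. The nearest 5 of 10926 were Ccl12, Sult1a1, Gm48338, Bcl2a1c and Slamf8, at distances of 0.123 to 0.222. Ccl12, a chemokine, was at 124 and 133 RPKM in AnnexinV-positive cells, against 52.9 and 32.2 RPKM in AnnexinV-negative cells. Bcl2a1c belongs to a family of close copies, and its level is uncertain. H2-DMb1 ranked 139 and H2-Eb1 7275 in the same order.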

How the data were processed

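RNA was measured in 4 libraries grouped by title, 2 AnnexinV-positive and 2 AnnexinV-negative. Reads were aligned with GSNAP to mm10, per the submitters' processing notes. The libraries were made with the TruSeq v2 kit, per the labels' protocols. The sources used here name no counting tool, annotation or filter. The deposited values, 1 per Ensembl gene, carry no unit in the header and were read as RPKM that the authors scaled by size factors: with steps set by exonic length in GENCODE vM21, 79.6% to 83.6% of low values (fewer than 100 reads) gave a whole read number to a tolerance of 0.01. Symbols and lengths came from that annotation (GRCm38), which matched 52489 genes. Read numbers were recovered with these steps and are approximate.

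Values were taken as log2(RPKM + 0.1), which understates changes of low genes. Genes reaching 1 RPKM in 2 or more libraries entered limma 3.58.1 (R 4.3.3) with an intensity trend and no covariate, and p-values were adjusted over all of them. Genes under the minimum are given as values, and ratios were compared with two-sided exact permutation tests. The fit was tested on simulated data. Replicate numbers were not used as a block in the main fit, because the labels do not say that they pair libraries. Same-numbered libraries did not deviate together (Pearson's r -0.21 across 10927 genes, which are not replicates). Alternatives covered the pseudocount (1 and 0.01), the minimum, the library scale, the block, the trend and each library left out. Members, lists and the motif letters were chosen with earlier results of these data known. The summed B cell markers are not reported here. Named genes were the 10 members, the 3 most abundant of each pathway list and any tested gene against its list, the 5 nearest Cd74, and, after their values were seen, Rfx5, Nfya, Ifng, Fn1, H2-Oa, H2-Ob, H2-DMb2, the tested genes with both boxes, H2-Ea-ps, Ighm, Cd79b, Ccr7 and genes named as under the minimum.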

Additional observations from a re-analysis of the deposited data

How the results depend on the processing

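The count of genes higher and lower was 3364 and 1012 as deposited. It was 1865 and 2489 with no minimum, 2946 and 3913 with a minimum of 0.1 RPKM in 2 libraries, 1133 and 1184 with libraries centred on their median, 113 and 2091 on the TPM scale, and 22 and 5393 relative to the microglia genes. Of the described genes, 6 rose as deposited, 3 on the TPM scale and 0 relative to the microglia genes (limma; 1 higher and 1 lower at an unadjusted p under 0.05). With 1 library left out and the same genes tested, 1297 to 3356 genes were higher, 787 to 1060 lower, and 5 to 8 of the described genes rose. The lowest counts of higher genes, 1749 and 1297, came without AnnexinV-positive library 1 and 2. The cause was not tested.

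With the replicate number as a block, 2443 genes were higher and 957 lower, and 6 described genes rose; this block changed no call among them. With numbers crossed, an alternative chosen after seeing the data because same-numbered libraries deviated in opposite directions (r -0.21), 4891 were higher and 1136 lower. The labels do not say that the numbers pair libraries.

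Signs turned for H2-Aa on the TPM scale (-0.13) and relative to the microglia genes (-0.48), for H2-Ab1 relative to the microglia genes (-0.26), and for H2-Eb1 with libraries centred on their median (-0.21), on the TPM scale (-0.66), relative to the microglia genes (-1.01) and without AnnexinV-negative library 2 (-0.46). H2-Eb1 passed without AnnexinV-negative library 1 (0.67). H2-Ab1 was also not called with no minimum (limma adjusted p 0.0726). Ciita, at about 82 to 241 reads a library, and Cd40, at about 185 to 269, were tested only with a lower minimum or none, and what depth did to their result was not tested.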

Other observations

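H2-Ea-ps, chosen after its values were seen, is annotated as a polymorphic pseudogene next to the class II genes (chromosome 17, 34341959 to 34344645) and would encode the alpha chain that pairs with H2-Eb1. In mouse strains of the H2 b haplotype, such as C57BL/6, it is known to be silent. It was at 0.192 and 0.102 RPKM in AnnexinV-positive cells, against 0.158 and 0.0602 RPKM in AnnexinV-negative cells, or about 20 and 9 reads against 20 and 6 reads in the same order of groups. H2-Eb1 was thus read at 6.39 RPKM or more in AnnexinV-positive and at 4.05 RPKM or more in AnnexinV-negative libraries while its partner stayed near the floor in all 4.

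The X box followed by a Y box was held by the promoter windows of 15 genes, of which 7 were tested, 3 rose (H2-DMb1, H2-Ob and Pim2) and 0 fell in limma, beside 30.8% and 9.26% of all genes tested. The letters were chosen after the windows of H2-Aa, H2-Eb1 and H2-DMb1 had been read, so these genes are not independent matches. Outside the class II region, the kinase Pim2 was at 2.37 and 2.62 RPKM in AnnexinV-positive cells, against 1.26 and 1.52 RPKM in AnnexinV-negative cells (difference 0.80, limma adjusted p 0.0292), and Mark3 and Prdm4 were at 0.08 and -0.06 and did not pass. H2-Oa, which pairs with H2-Ob in an inhibitor of H2-DM, has no such pair of letters in its window and was at 11.9 and 11.96 RPKM in AnnexinV-positive cells, against 4.20 and 3.41 RPKM in AnnexinV-negative cells (difference 1.63, limma adjusted p 0.00213). H2-Ob was at 6.30 and 6.77 RPKM in AnnexinV-positive cells, against 2.89 and 2.74 RPKM in AnnexinV-negative cells (difference 1.18, limma adjusted p 0.00488).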
